A study of Mus musculus with 8 samples.

Results

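The genes described here are 39 large mRNAs known as targets of FMRP, the RNA-binding protein lost in fragile X syndrome. They were chosen by name from the cytoskeleton, chromatin, ubiquitin and adhesion classes of FMRP targets. Genes listed as synaptic, channel or mTOR genes were left out, which does not show that the rest have no part at the synapse. Of the 39, 38 had counts and all 38 passed the filter on low counts, among 18301 genes summed and 12898 genes tested. Trio was not analysed here. The 38 comprise 11 cytoskeleton and signalling genes, 12 adhesion and membrane genes, 10 chromatin genes and 5 genes of the ubiquitin system. Their longest annotated coding sequence spans 6000 nt or more in 28 of them.

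FMRP binds mRNA, largely within coding sequences, and is best known as a brake on translation in neurons, where it has been proposed to stall ribosomes during elongation. Its targets are enriched for very long brain mRNAs and for genes linked to autism. A long coding sequence holds more ribosomes and takes longer to translate, so that genes of like length are the natural reference for this group. eIF4G proteins are the scaffold of the complex that brings the small ribosomal subunit to the capped 5′ end.

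Footprints, the stretches of mRNA that ribosomes shield from nuclease, were sequenced beside total RNA. The cells were mouse neurons after 8 days in vitro, grown from the embryonic stem cell line CGR8 and labelled cortical and glutamatergic. One genotype is wildtype (WT) and the other is labelled as a double knockout of Eif4g1 and Eif4g3 (DKO), and every culture received cycloheximide at 100 µg/ml for 5 minutes. Each of the 4 groups (footprints and RNA of each genotype) has 2 libraries, taken to come from 4 cultures by the codes in the labels. The series title speaks of microexons of these genes, the labels do not say which bases were removed, and no source used here says whether a DKO culture stands for 1 clone. WT replicate 2 is coded only by its genotype, while the other WT culture and both DKO cultures carry a letter with numbers, and what this difference means is not stated. Every p-value below reflects only how far these libraries spread, which may be technical.

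The footprint libraries held 10490535 to 19753419 counts each, and the RNA libraries 14762047 to 44786643, the deepest being DKO replicate 1. CPM values are counts scaled to the library's total times its TMM factor, computed over all 8 libraries. These factors were 0.9 to 0.954 for footprints and 1.064 to 1.095 for RNA. Footprint CPM set beside RNA CPM therefore depends on this scaling. Eif4g1 footprints were 299.8 and 263 CPM for the WT cultures, against 154 and 287.5 for the DKO cultures. Its RNA was 288 and 279.9 CPM for WT, against 125 and 305 for DKO. Only DKO replicate 1 was low, in both of its libraries. Eif4g3 stood at 103 to 138.5 CPM in RNA and did not separate the genotypes, and a sum over the whole gene does not check a deleted microexon. Of 10 neuron markers 9 were tested, with summed footprints of 6047 to 7349 CPM, while the 5 microglia and blood markers summed to under 1 CPM in each footprint library. WT replicate 2 stood apart from the other 3 cultures on the first principal component of both assays (34.7 in footprints, against -14 to -9.1, and 29.3 in RNA, against -12.9 to -7.5). It had the lowest neuron sum and the highest sum of 10 fibroblast, mural and endothelial markers (926 CPM, against 188 to 580.5 in the other footprint libraries), of which 9 had counts and 8 were tested. Its sum of 4 pluripotency markers, none of which was tested, was also the highest. That sum was 19.55 CPM of footprints against 0.52 to 1.36 elsewhere, and 16.1 CPM of RNA against 5.67 to 6.26. Markers of dividing cells, progenitors and oligodendrocytes leaned below zero in DKO over WT, with none called. In footprints 9 of 9 tested markers of proliferating cells were negative (median -0.41). So were 9 of 9 of progenitors and radial glia (-0.31) and 9 of 9 of oligodendrocytes (-0.58). Both DKO values lay below both WT values in 16.2% of all tested genes in footprints and 18.9% in RNA. Among these markers, in the same order, 9, 6 and 8 did so in footprints and 8, 3 and 8 in RNA. Their summed footprints were 505.5 and 614.9 CPM in WT and 448.8 and 442.8 in DKO for proliferating cells, and 929.7 and 1136 against 729.4 and 787.3 for oligodendrocytes. Summed astrocyte markers overlapped between the genotypes, at 2209 and 2747 CPM of footprints in WT and 2368 and 2416 in DKO. Their RNA sums overlapped too (1281 and 1676 against 1177 and 1326 CPM). The part of all these marker lists in the results below was not tested. Slc17a6, the glutamate transporter that marks the labelled cell type, had 74.3 CPM of footprints in WT replicate 2 and 166 to 234 CPM elsewhere. Markers of inhibitory neurons were present too. The 6 listed, of which 3 were tested, summed to 531.5 to 605.9 CPM of footprints, with Gad1 at 173 to 189 and Gad2 at 132 to 166.5 CPM. In such cultures fewer cells of a type and less RNA per cell cannot be told apart.

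The counted isoforms hold only part of several of these genes, which limits what their values stand for. The isoforms analysed have annotation support levels 1 to 3, and in 27 of the 38 genes their exons hold at least 90% of the longest coding sequence. For App, the amyloid precursor protein, a single isoform was counted, with 2085 coding nt against 2310 nt in the longest one. The difference is the pair of coding exons that carry the Kunitz inhibitor domain and the short stretch next to it, long known as the parts that neurons mostly skip. They are shown because the App values below do not cover them (minus strand, GRCm38, 5′ to 3′).
Exon 7, chr16:85043576-85043743: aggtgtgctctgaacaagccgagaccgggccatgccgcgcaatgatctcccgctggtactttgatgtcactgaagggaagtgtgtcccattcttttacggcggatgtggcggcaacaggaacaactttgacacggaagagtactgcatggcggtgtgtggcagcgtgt
Exon 8, chr16:85040251-85040307: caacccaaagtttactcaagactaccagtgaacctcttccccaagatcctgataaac
The exons are 168 and 57 nt long. App lies at chromosome 16, 84949685 to 85173766.

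In the 11 genes below 90% the covered part was small for the microtubule-associated protein Map1a (5.93%), the BAF remodelling subunit Arid1b (7.68%), the histone methyltransferases Kmt2d (8.30%) and Kmt2a (17.2%), the repressor Spen (10.8%) and the NuRD helicase Chd3 (27.6%). It was 43.2% to 74.2% for the ubiquitin ligases Herc1 and Ubr4, the ankyrins Ank2 and Ank3, which tie membrane proteins to spectrin, and the motor Myo5a. Map1a, Arid1b and Spen had no coding isoform among those counted, Kmt2a had 1 annotated for nonsense-mediated decay, and in Myo5a 98.2% to 100% of the counts lay in isoforms not annotated as protein coding. Genes of the same length shared this loss: 203 of 301 tested genes outside the list with a coding sequence of 6000 nt or more (67.4%) reached 90%, against 18 of 28 here. Values of the 11 genes describe fragments, and levels per length are therefore given for the 27.

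**Figure D1:**
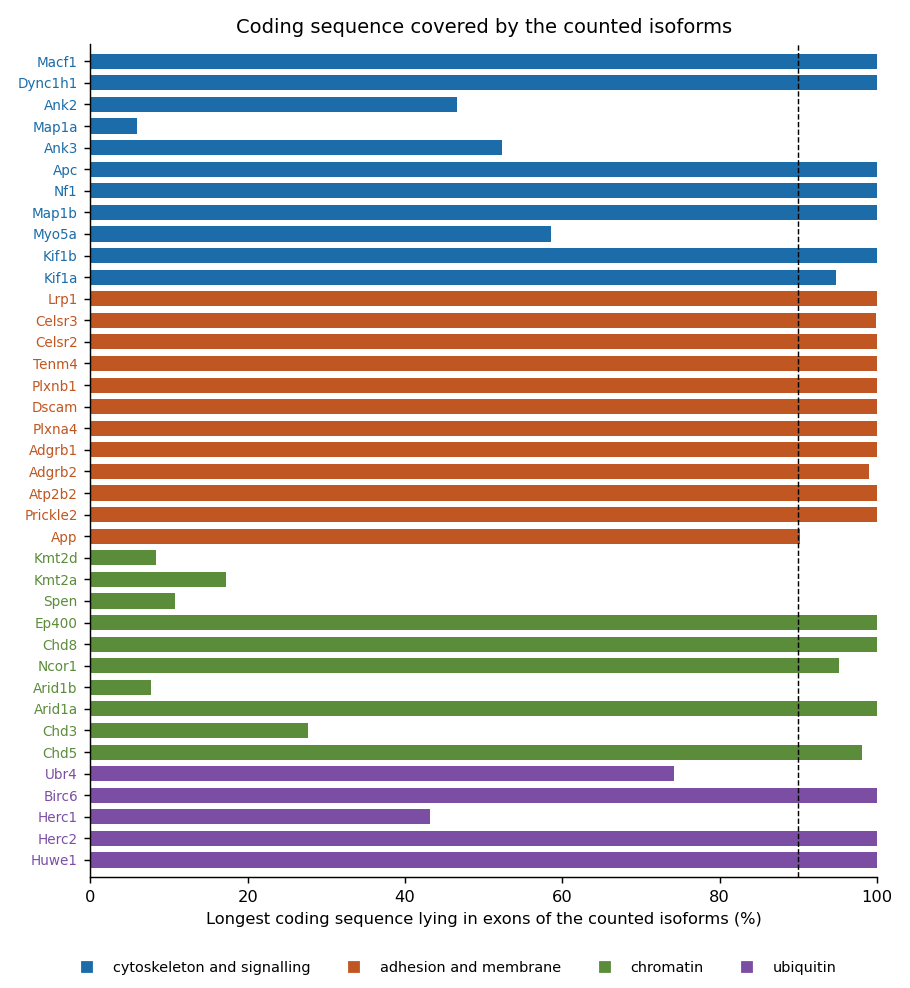
Share of the longest annotated coding sequence (x axis, percent) that lies in exons of the counted isoforms, for each of 38 genes (y axis), coloured by class. The dashed line marks 90%, which 27 genes reach, with App just above it at 90.3%, while Map1a is lowest at 5.93%.

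AGGA and TGGA are short motifs reported at sites that FMRP binds, and they were searched on the sense strand of the coding sequences. The median was 8.55 AGGA per kb of the longest coding sequence, against 7.72 over all 12894 tested genes with one, and in the 6000 nt class 16 of 28 genes lay above the median of the 301 others (7.72). TGGA was not denser than elsewhere (median 7.75 against 8.32, and 9 of 28 above the others' median of 8.39). Chd3 had the most AGGA (16.4 per kb), followed by the related remodeller Chd5 (15.4), the planar polarity protein Prickle2 (14.4) and Map1a (13.7), and the endocytic receptor Lrp1 the fewest (4.11). The 60 nt within 1 coding exon that hold the most AGGA or TGGA on the sense strand, overlaps counted, are shown for these top 4, with the motifs in capitals (GRCm38).
Chd3, exon 1, chr11:69369318-69369377, minus strand: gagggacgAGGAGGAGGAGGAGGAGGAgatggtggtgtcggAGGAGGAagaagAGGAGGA
Chd5, exon 9, chr4:152360838-152360897, plus strand: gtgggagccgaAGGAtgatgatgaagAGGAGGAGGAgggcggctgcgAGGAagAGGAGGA
Prickle2, exon 8, chr6:92410891-92410950, minus strand: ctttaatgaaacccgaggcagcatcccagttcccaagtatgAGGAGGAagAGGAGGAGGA
Map1a, exon 5, chr2:121300675-121300734, plus strand: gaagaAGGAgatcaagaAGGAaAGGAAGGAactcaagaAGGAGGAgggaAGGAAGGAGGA
They hold 10, 7, 5 and 9 motifs, all AGGA. Of 391113 consecutive 60-nt windows over the coding sequences of the tested genes, 60.7% hold at least 1 motif. At least 5 are held by 0.52%, at least 7 by 0.0759%, at least 9 by 0.023% and at least 10 by 0.0123%. The windows shown are the best of all positions in genes picked for their AGGA density, while the consecutive windows are fixed. The shares therefore do not measure how unusual the shown windows are. Such runs of AGGA are letters of the sequence and no measure of binding. Across the 27 covered genes the densities and footprints over RNA in WT had Pearson r = 0.16 for AGGA and -0.21 for TGGA, a description across genes.

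The first comparison asked whether DKO neurons carried more or fewer footprints on these mRNAs. None of the 38 genes was called by edgeR's quasi-likelihood test at a Benjamini-Hochberg adjusted p under 0.05, and the background was as low, with 0.00775% of all tested genes called higher and 0.0% lower. No member had an unadjusted p under 0.05 (725 genes did), and DESeq2 and limma-voom also called 0 of the 38. The log2 fold changes ran from -0.28 to 0.26 with a median of 0.04 (0.00 over all genes tested), 26 of them positive, and standard errors (SE) were under 0.2 for 35 genes. Without footprints of WT replicate 2 the median was -0.04 with 9 positive, and without those of DKO replicate 1 it was -0.01 with 17 positive. Both DKO values lay above both WT values in 4 genes and below in 3, where 16.3% and 16.2% of all tested genes did so.

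All 11 cytoskeleton and signalling genes had positive footprint changes (median 0.10, none called). Dync1h1, the heavy chain of the dynein motor that carries cargo toward the cell body (chromosome 12, 110601452 to 110666945), had 198 and 176 CPM of footprints in WT and 236 and 212 in DKO. Both DKO values lay above both WT values, at a log2 fold change of 0.26 ± 0.12 (SE, adjusted p = 0.849, edgeR). Nf1, the neurofibromin that turns off Ras (chromosome 11, 79339693 to 79581612), had 253 and 188 CPM in WT and 246 in both DKO libraries (0.16 ± 0.13). Its groups overlapped, WT replicate 2 was low, and without those footprints the value was -0.04. Map1b, the microtubule-associated protein of growing axons and a classical FMRP target (chromosome 13, 99421446 to 99516540), stood at 2479 and 1837 CPM in WT and 2248 and 2170 in DKO (0.03 ± 0.18). Macf1, which links actin to microtubules (chromosome 4, 123349633 to 123684360), stood at 258 and 242 against 281 and 231 CPM (0.03 ± 0.12). Without both libraries of WT replicate 2 only 3 of the 11 genes were positive (median -0.04), and without those of DKO replicate 1 the number was 8 (median 0.01).

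The 5 ubiquitin genes also had small positive footprint changes (0.05 to 0.13, none called). Birc6, an inhibitor of apoptosis with ubiquitin-conjugating activity, had the highest, at 0.13 ± 0.13, and Herc2, a giant ligase of DNA repair and trafficking (chromosome 7, 56050196 to 56231800), stood at 101 and 81.7 CPM in WT and 94.8 and 95.3 in DKO. Ubr4 (chromosome 4, 139352609 to 139489588), a ligase that reads N-terminal degradation signals, had 117 and 110 against 125 and 109 CPM. In each of the 5 genes the WT replicates lay further apart than the genotype means did, and the groups overlapped. Without the culture WT replicate 2 only 1 of the 5 was positive (median -0.04).

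Chromatin genes were split, 5 positive and 5 negative (median 0.00). Ep400, the ATPase of the complex that exchanges histone variant H2A.Z (chromosome 5, 110664373 to 110770717), had 55.0 and 47.7 CPM in WT and 57.1 and 56.4 in DKO (0.14 ± 0.10, adjusted p = 0.861, edgeR). The lowest values belonged to histone H3 lysine 4 methyltransferases counted only in part. Kmt2a (chromosome 9, 44803355 to 44881296) had 6.99 and 8.43 CPM in WT and 6.04 and 6.62 in DKO, both lower than both WT values (-0.28 ± 0.22), and Kmt2d (chromosome 15, 98831669 to 98871204) had 4.23 and 4.65 against 3.02 and 4.37 (-0.24 ± 0.27). Spen (chromosome 4, 141467890 to 141538597) stood at 17.8 and 18.6 against 19.2 and 15.4 CPM (-0.09 ± 0.15). Chd3 (chromosome 11, 69343273 to 69369406) stood at 58.7 and 48.5 against 56.8 and 51.4 CPM (0.01 ± 0.13).

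Among adhesion and membrane genes 5 of 12 were positive (median -0.04). Celsr3, an atypical cadherin of axon guidance (chromosome 9, 108826320 to 108852969), had 23.4 and 20.4 CPM in WT and 26.1 and 24.5 in DKO (0.20 ± 0.12), without overlap between the groups. Its relative Celsr2 (chromosome 3, 108390851 to 108415552) did not follow it, at 61.7 and 69.2 against 60.1 and 62.5 CPM (-0.09 ± 0.16). Atp2b2, the plasma membrane calcium pump (chromosome 6, 113743831 to 114042613), had 228 and 199 CPM in WT and 183 and 188 in DKO, both lower (-0.20 ± 0.12, adjusted p = 0.854, edgeR). Plxnb1, a semaphorin receptor (chromosome 9, 109095389 to 109119917), had 43.3 and 53.9 against 39.7 and 44.9 CPM (-0.19 ± 0.19). Dscam, an immunoglobulin cell adhesion molecule (chromosome 16, 96590840 to 97170752), had 61.5 and 57.4 against 57.0 and 57.1 CPM (-0.06 ± 0.09), and App 1026 and 846 against 964 and 965 (0.04 ± 0.17). The remaining members here, Lrp1, Adgrb1, Adgrb2, Tenm4, Plxna4 and Prickle2, had changes of -0.07 to 0.10.

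**Figure D2:**
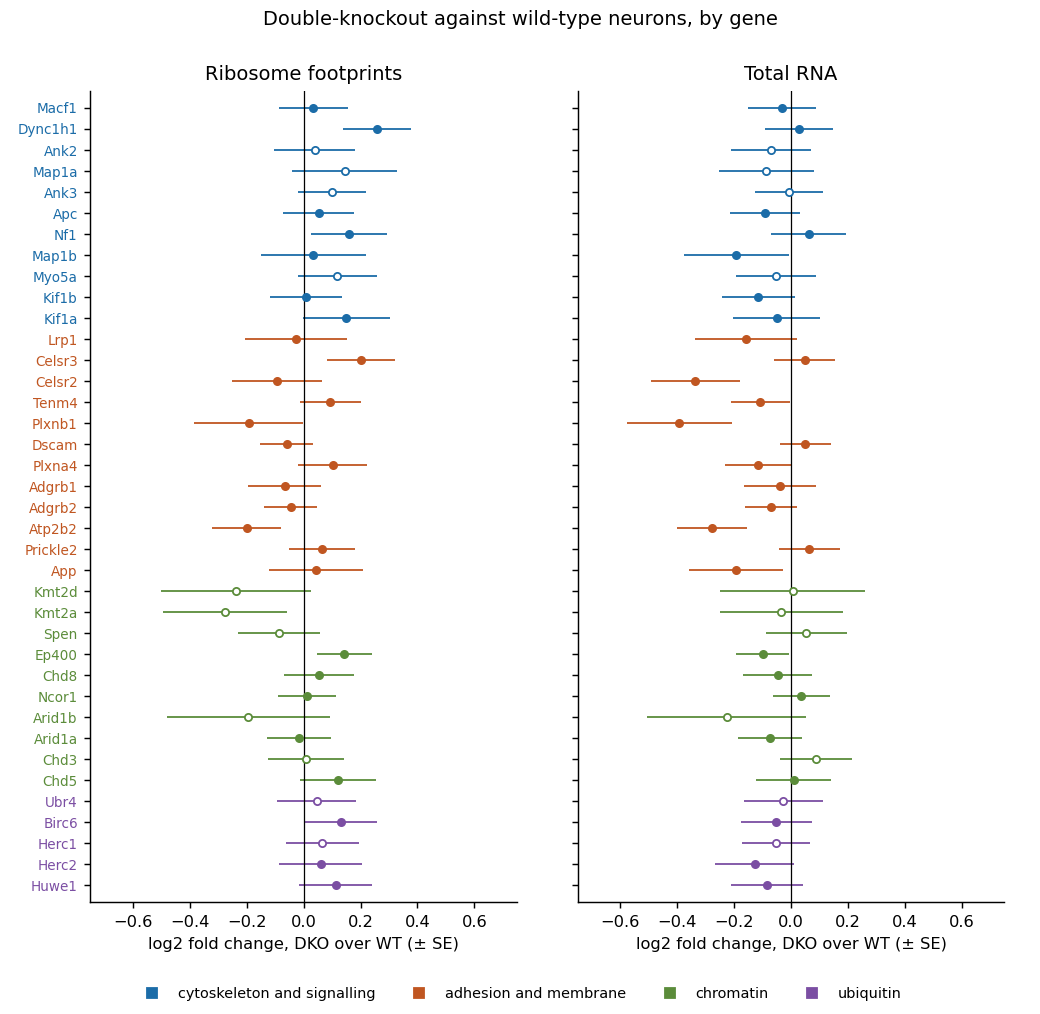
log2 fold change of DKO over WT (x axes) in footprints (left) and total RNA (right) for each gene (y axis), with bars of 1 SE, coloured by class. Filled points are the 27 genes with at least 90% of the coding sequence covered and open points the other 11. No point passed the test, and all footprint values lie between -0.28 and 0.26.

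The second comparison asked the same of RNA. Again 0 of the 38 genes were called by edgeR (0.0155% of all tested genes were called higher and 0.0% lower), DESeq2 or limma-voom, and 1 had an unadjusted p under 0.05. The median log2 fold change was -0.05, with 28 of 38 negative and a range of -0.39 to 0.09, beside medians of 0.00 over all genes tested and -0.04 over the 301 other genes of 6000 nt or more. Both DKO values lay above both WT values in 1 gene and below in 2, against 19.6% and 18.9% of all tested genes. Atp2b2 had the smallest p: its RNA was 161 and 152 CPM in WT and 113 and 146 in DKO, both lower (-0.28 ± 0.12, adjusted p = 0.851, edgeR). Plxnb1 had the largest difference, from 45.1 and 59.3 to 34.2 and 46.3 CPM (-0.39 ± 0.18), with overlapping groups. Celsr2 had 53.3 and 60.6 CPM in WT and 37.2 and 53.9 in DKO (-0.34 ± 0.16), and App 560 and 512 against 384 and 554 (-0.19 ± 0.17). In each of these 4 genes DKO replicate 1 was the lowest of the 4 RNA libraries. On the other side Chd3 had 177 and 140 CPM in WT and 166 and 170 in DKO (0.09 ± 0.13), Prickle2 (chromosome 6, 92370908 to 92706155) 49.9 and 46.1 against 47.7 and 52.8 (0.06 ± 0.11), Nf1 337 and 308 against 324 and 348 (0.06 ± 0.13) and Dscam 88.3 and 81.4 against 86.6 and 89.1 (0.05 ± 0.09), all overlapping.

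One RNA library carried most of this pattern. RNA was lowest in DKO replicate 1 for 30 of the 38 genes (78.9%), where 28.0% of all tested genes and 50.5% of the 301 other genes of 6000 nt or more had their lowest value, and all 8 listed genes of 3000 nt up to 6000 nt had theirs there. The median deviation from a gene's own mean was -0.17 in that library, 0.09 in DKO replicate 2 and 0.02 and 0.05 in the WT libraries, while the other genes of 6000 nt or more deviated by -0.08 in it and genes under 1500 nt by 0.02. Map1b showed it plainly, with 1472, 1542 and 1557 CPM of RNA in the other libraries and 1081 in DKO replicate 1, and Kif1a, the axonal kinesin, with 486, 490 and 548 against 394. Ncor1, a nuclear corepressor, did not share it (216 and 218 in WT, 224 and 221 in DKO). Leaving out this library turned the RNA median to 0.08, with 30 of 38 genes positive. It is also the deepest library and the one with low Eif4g1, and the part of either in the result was not tested.

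**Figure D3:**
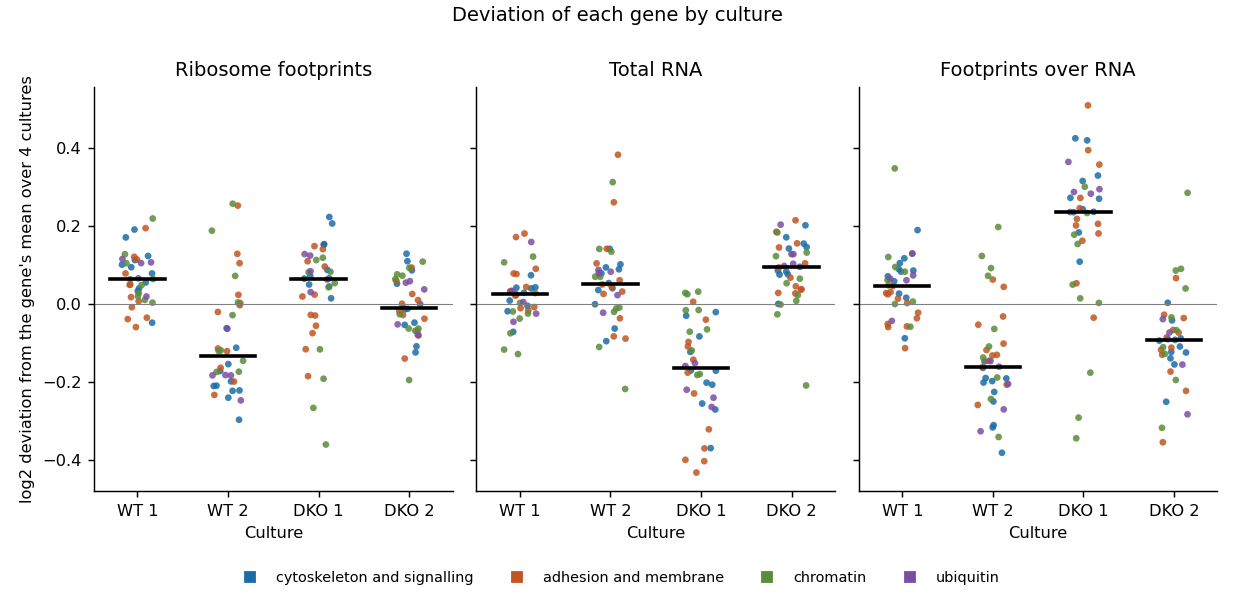
log2 deviation of each gene from its own mean over the 4 cultures (y axis) in footprints, RNA and footprints over RNA, by culture (x axes), with 1 point a gene, coloured by class, and black bars at the medians. RNA sits low in DKO 1 (median -0.17), footprints sit low in WT 2 (median -0.13), and footprints over RNA are highest in DKO 1 (median 0.24).

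Translational efficiency, the change of footprints relative to RNA (interaction term), was called for 0 of 38 genes by edgeR, where the background was also 0.0% in each direction, and by DESeq2 and limma-voom; 0 members and 110 genes in all had an unadjusted p under 0.05. The values leaned one way: 31 of 38 were positive with a median of 0.12, and 24 of 27 among genes with covered coding sequence (median 0.14). Over all genes tested the median was 0.01, and outside the list it was larger in longer genes, going from 0.00 under 1500 nt through 0.02 and 0.04 to 0.05 at 6000 nt or more, where 189 of 301 genes were positive. In that longest class the listed genes had a median of 0.11, or 0.17 against 0.05 where only genes with covered coding sequence are taken on both sides. By class, 11 of 11 cytoskeleton genes were positive (median 0.14), as were 5 of 5 ubiquitin genes (0.18), 10 of 12 adhesion genes (0.14) and 5 of 10 chromatin genes (0.00). Of the 5 chromatin genes with covered coding sequence 4 were positive (median 0.10), and 4 of the 5 negative chromatin values came from genes counted in part. Differences between the classes were not tested.

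No single gene passed the test. Ep400 had the smallest p, with log2 footprints over RNA of -0.42 and -0.67 in the WT cultures and -0.27 and -0.33 in DKO (difference 0.24 ± 0.13, adjusted p = 1, edgeR). Dync1h1 stood at -0.68 and -0.74 in WT and -0.26 and -0.69 in DKO (0.23 ± 0.17). Plxna4, a semaphorin co-receptor (chromosome 6, 32144268 to 32588192), stood at -0.85 and -1.14 against -0.72 and -0.81 (0.22 ± 0.17), and Tenm4, a teneurin of synaptic partner matching (chromosome 7, 96171246 to 96911093), at -0.54 and -0.63 against -0.21 and -0.55 (0.20 ± 0.15). Below zero were Kmt2a, with 0.77 in both WT cultures and 0.47 and 0.58 in DKO (-0.24 ± 0.31), Kmt2d (-0.24 ± 0.37), Spen (-0.14 ± 0.20) and Dscam (-0.11 ± 0.13). Both DKO cultures lay above both WT cultures in 4 genes (Ep400, Celsr2, Plxna4 and Plxnb1) and below in 2 (Kmt2a and Dscam), against 13.8% and 13.1% of all tested genes.

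The lean toward higher efficiency rested on single cultures. Footprints over RNA were highest in DKO replicate 1 for 31 of 38 genes (31.2% of all tested genes, and 171 of the 301 others of 6000 nt or more) and lowest in WT replicate 2 for 25 (29.9% of all tested genes). DKO replicate 2 was the highest culture for none of the 38. Without both libraries of DKO replicate 1 the median was -0.04 with 15 genes positive, and without its RNA library alone it was -0.03 with 12 positive. Without both libraries of WT replicate 2 the median was 0.00 with 19 positive. In the opposite direction, without WT replicate 1 it was 0.26 (32 positive) and without DKO replicate 2 it was 0.31 (34 positive). The cytoskeleton genes had a median of -0.04 (4 of 11 positive) without the DKO replicate 1 culture and 0.34 (11 of 11) without DKO replicate 2.

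The ratio of footprints to RNA within a genotype separated these genes far more than the genotype did. It is given on a log2 scale on which 0 is near the typical gene (median -0.02 over all genes tested in WT). In WT, 9 of 38 genes were called higher in footprints than in RNA and 17 lower (edgeR, background 31.4% higher and 33.8% lower), with a median of -0.21. DKO gave 10 higher and 17 lower (background 32.1% and 33.3%), with a median of -0.10. The same 17 genes were lower in both genotypes, and the 9 higher in WT were higher in DKO too, joined there by Celsr2, whose own difference between genotypes was not called (0.24 ± 0.22). With scaling done within each assay, which moves the median of all genes in WT to -0.25, the split was 3 higher and 21 lower in WT and 4 and 20 in DKO, beside 23.1% higher and 43.4% lower among all genes in WT. Under that scaling App, Arid1a and Kmt2a were higher in WT, the last from a fragment, and App, Arid1a, Atp2b2 and Map1b in DKO. The other 6 higher calls of each genotype were lost. The values depended on single cultures. Without both libraries of WT replicate 1 the WT median was -0.279. In DKO the median was -0.272 without both libraries of DKO replicate 1 and 0.069 without both of DKO replicate 2. The number of calls changed in these fits too, among all tested genes as well as the listed ones. The threshold passed between Kif1a (0.38 ± 0.15, adjusted p = 0.0486) and Huwe1, a ubiquitin ligase (-0.31 ± 0.13, adjusted p = 0.0526), both by edgeR in WT.

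**Figure D4:**
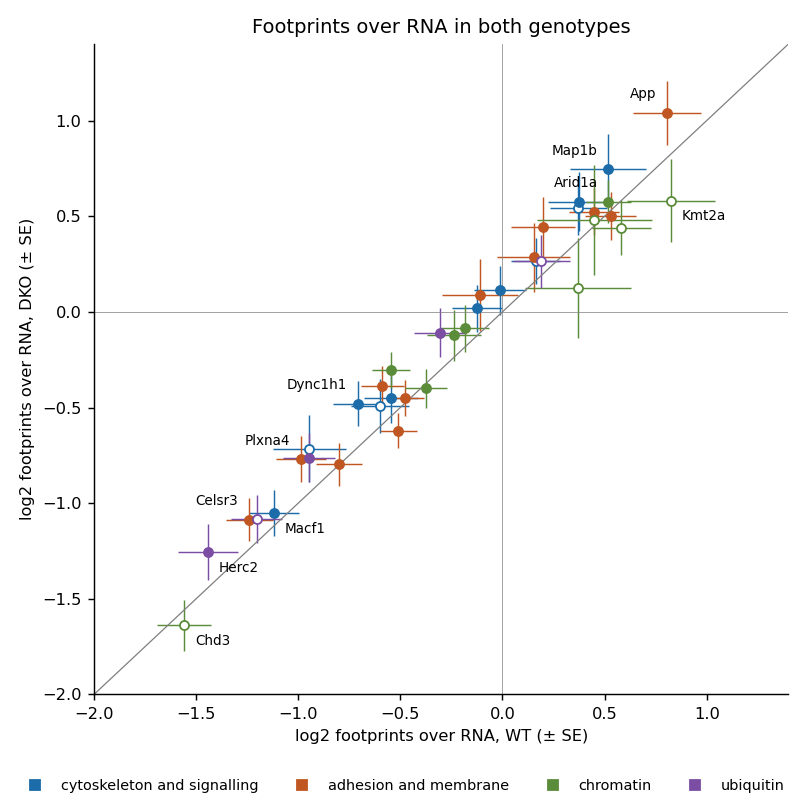
log2 footprints over RNA of each gene in WT (x axis) and DKO (y axis) with bars of 1 SE, coloured by class, with open points for the 11 genes whose coding sequence is covered in part. The points follow the line of equal values from Chd3 (-1.56 in WT) to App (0.80) and Kmt2a (0.82).

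In the ubiquitin system 3 of 5 genes were called lower and none higher in WT, with a median of -0.95. Among the 301 others of 6000 nt or more, 51.2% were called lower. Herc2 was lowest, with RNA of 264 and 232 CPM in WT against the footprints of 101 and 81.7 given above (-1.44 ± 0.14, adjusted p = 6.12e-06, edgeR). Herc1 (-1.20 ± 0.13) and Birc6 (-0.95 ± 0.13) followed, Huwe1 missed the threshold, and Ubr4 stood at 0.19 ± 0.14 (-0.04 with scaling within each assay). Herc1 and Ubr4 are among the genes counted in part. All 5 have coding sequences of 13134 to 15540 nt.

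Cytoskeletal genes covered both sides, with 3 higher, 5 lower and a median of -0.13. Macf1, which has the longest coding sequence here (22065 nt), had RNA of 510 and 575 CPM in WT (-1.12 ± 0.12, adjusted p = 8.28e-06, edgeR), and Dync1h1 had 317 and 295 (-0.71 ± 0.12). Map1a (-0.94 ± 0.18, from a fragment), Ank2 (-0.60 ± 0.14) and Nf1 (-0.55 ± 0.13) were lower as well. Map1b lay on the other side (0.52 ± 0.19, but not called at 0.29 with scaling within each assay and at 0.28 without footprints of WT replicate 1), together with Kif1a and the partly covered Myo5a (0.37 ± 0.14). Kif1a's relative Kif1b stood at -0.01 ± 0.13, and Apc, which tracks microtubule ends and restrains Wnt signalling, at -0.13 ± 0.12.

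Adhesion and membrane genes had 3 called higher and 6 lower (median -0.29). App led, with 1026 and 846 CPM of footprints and 560 and 512 of RNA in WT (0.80 ± 0.17, adjusted p = 0.00125, edgeR). The adhesion receptor Adgrb1 (0.53 ± 0.13) and Atp2b2 (0.45 ± 0.12) were the others, neither called with scaling within each assay (0.30 and 0.22). Isoforms not annotated as protein coding took 62.9% to 68.6% of the footprints of Adgrb1 and 46.6% to 68.6% of its RNA. Celsr3 was lowest, with RNA of 52.3 and 51.4 CPM (-1.24 ± 0.11, adjusted p = 2.19e-06, edgeR), while Celsr2 stood at 0.20 ± 0.16 (-0.03 with scaling within each assay). Plxna4 (-0.99 ± 0.12), Prickle2 (-0.80 ± 0.11), Tenm4 (-0.59 ± 0.11), Dscam (-0.51 ± 0.09) and Adgrb2 (-0.48 ± 0.09) were also lower, and Lrp1 and Plxnb1 were not called.

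Of the chromatin genes 3 were higher and 3 lower (median 0.09). Among the 5 with covered coding sequence 1 was higher (Arid1a) and 2 lower (Ep400 and Ncor1), with a median of -0.24. Arid1a, a BAF subunit, had 89.9 and 88.9 CPM of footprints and 57.6 and 67.0 of RNA in WT (0.52 ± 0.11). Its partner in the same position of the complex, Arid1b, was not called (0.45 ± 0.28) and rests on 2.57 to 3.91 CPM of RNA over a fragment. Chd3 was lowest of all 38 (-1.56 ± 0.13, adjusted p = 1.16e-06, edgeR), but its counts come from 27.6% of the coding sequence, and isoforms not annotated as protein coding took 53.5% to 54.9% of its footprints and 81.1% to 84.1% of its RNA. Chd5 (-0.24 ± 0.13) and Chd8, an autism gene of the same family (-0.19 ± 0.12), were not called. Ep400 (-0.55 ± 0.09) and Ncor1 (-0.37 ± 0.10) were lower, and Kmt2a (0.82 ± 0.22) and Spen (0.58 ± 0.14) higher, the last pair again from fragments. With protein-coding isoforms alone, which left 33 of the 38 genes, 4 were higher and 15 lower in WT. Of the 12400 genes tested in that setting, 30.4% were called higher and 33.2% lower.

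Long genes outside the list had low ratios too. Their WT median was lower in longer classes, going from 0.14 under 1500 nt through -0.13 and -0.25 to -0.45 at 6000 nt or more, where 42 of 301 genes were called higher and 154 lower. The 28 listed genes of that class had a median of -0.34, with 4 higher and 14 lower, so that they lay 0.11 above the others in WT and 0.21 above them in DKO. With only covered genes on both sides this turned in WT, to -0.44 for 18 listed genes against -0.37 for 203 others, and was -0.35 against -0.34 in DKO. Taken relative to its own length class, the median of all 38 genes was 0.19 in WT and 0.31 in DKO. The 8 listed genes of 3000 nt up to 6000 nt had a median of 0.18, with 4 higher and 2 lower (31.4% and 33.8% over all tested genes). Their median was -0.01 over the 7 covered ones, where the 1328 covered others had -0.25. Across the 27 covered genes the WT ratio was lower in genes of longer coding length (Pearson r = -0.53), a description across genes that share libraries. RNA reads also fall on the non-coding ends of an mRNA, where footprints are few, so that the ratio is not corrected for them. Genes were also grouped by the whole length of the transcript with the longest coding sequence, counted or not. For App this is 8167 nt, while its counted isoform has 3176 nt. Listed genes of 6000 nt up to 9000 nt had a WT median of 0.27 (12 genes) against -0.46 for 1194 others. Those of 9000 nt or more had -0.46 (24 genes) against -0.62 for 392 others. The 12 include the partly covered Ank3, Chd3, Myo5a and Arid1b, and covered genes alone were not compared by transcript length.

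**Figure D5:**
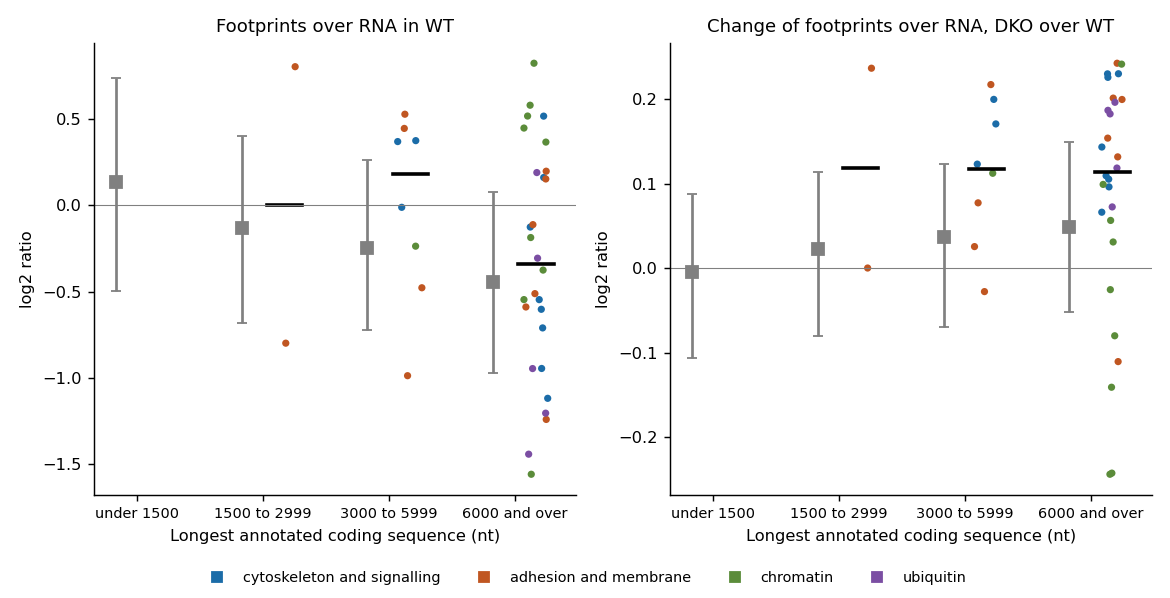
log2 footprints over RNA in WT (left y axis) and its change in DKO over WT (right y axis) by class of coding length (x axes). Grey squares and bars are the medians and quartiles of genes outside the list (6852, 4199, 1504 and 301 genes), points are the 38 genes coloured by class, and black bars their medians. On the left the grey medians fall from 0.14 to -0.45, and on the right they rise from 0.00 to 0.05, while the listed genes of the longest class have medians of -0.34 and 0.11.

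Levels per length were computed for the 27 covered genes in TPM (counts per isoform length, scaled to the library, summed over the gene's isoforms). A gene whose counts fall on short isoforms gets a higher TPM for the same count, so that an order between genes with several isoforms depends on how the estimate divides the reads. Of the genes with a single counted isoform, App stood at 341 and 311 TPM in WT RNA and 242 and 342 in DKO, and Map1b at 241 and 252 in WT and 184 and 259 in DKO. Within every library App was above Map1b. Ncor1 shows the limit: at 216 and 218 CPM of RNA in WT it had 188 and 189 TPM, and its longest counted isoform holds 4197 of 7362 coding nt. Celsr2 (10.1 and 11.2 TPM) and Celsr3 (9.81 and 11.0) were lowest in WT. Celsr2 was slightly the higher in each WT library and the lower in each DKO library (7.09 and 10.1 against 10.7 and 11).

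Isoforms split unequally between the assays in several genes, among them the kinesins and Ank3. Kif1b-203 (10233 nt, of which 5448 coding) took 72.5% to 79.1% of the gene's RNA counts but 4.68% to 5.64% of its footprints, while Kif1b-202 (5992 nt, 5310 coding) took 7.96% to 15.7% of RNA and 86.2% to 90% of footprints. The pattern returned in Kif1a, where Kif1a-204 (8206 nt, 5091 coding) had 75.2% to 79.5% of RNA and 1.93% to 2.38% of footprints and an isoform of 5097 nt (5094 coding) had 74.6% to 82.6% of footprints. In Ank3 the isoform of 9963 nt took 29.8% to 37.8% of RNA and 1.57% to 2.64% of footprints. These shares are estimates that divide short reads among overlapping isoforms, and in each pair the isoform with more of the RNA has the longer non-coding part. In each of the shares given so far the WT and DKO libraries overlapped. The same kind of split was seen in Prickle2, where the isoform of 3708 nt took 91.9% to 95.4% of footprints and 17.2% to 29.6% of RNA, and in Birc6, where that of 14649 nt took 86.6% to 94% and 18.7% to 28.5%. In Arid1a the isoform of 6486 nt took 56.9% to 65.8% of footprints and 0.922% to 2.6% of RNA, and in Atp2b2 that of 4586 nt took 73.5% to 75.9% and 13.5% to 20.3%. The RNA share of the Birc6 isoform did not overlap between genotypes (23.8% and 18.7% in WT, 28% and 28.5% in DKO). Nor did that of the Arid1a isoform (1.11% and 0.922% against 1.87% and 2.6%), and neither difference was tested. In other genes the assays were closer: in Macf1 both gave most counts to the isoform of 17331 nt (83.2% to 87.3% of footprints and 76.2% to 81.3% of RNA), and Map1b and App have 1 counted isoform each.

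FMRP itself and the synaptic FMRP targets were measured for comparison. Fmr1 had 105 and 81.9 CPM of footprints in WT and 96.0 and 94.8 in DKO (0.03 ± 0.11), and 147 and 149 CPM of RNA in WT and 150 and 148 in DKO (0.01 ± 0.11). Of 18 genes for FMRP and its partners 17 were tested and edgeR called 0 in footprints, RNA or efficiency, none having an unadjusted p under 0.05, with medians of 0.01, -0.01 and 0.01. Ago2, the slicing Argonaute, had the largest value among those named by rule (0.31 ± 0.18 in footprints and 0.33 ± 0.18 in RNA). Of 26 synaptic FMRP targets 0 were called either (1 in footprints and 2 in RNA had an unadjusted p under 0.05), with medians of 0.06 in footprints, 0.07 in RNA and 0.00 in efficiency, where Shank2, a postsynaptic scaffold, had 0.39 ± 0.11 in footprints and 0.31 ± 0.11 in RNA. The footprints over RNA of these 26 in WT were called higher for 12 and lower for 6 (median 0.35). Over all tested genes 31.4% were called higher and 33.8% lower. Of the 38 listed genes 9 were higher and 17 lower (median -0.21). The difference between the lists was not tested. They were not matched for coding length or coverage, while the ratio was lower in longer genes.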

How the data were processed

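Values are the deposited estimated counts of each Ensembl transcript, which are whole numbers throughout. Per the submitters' processing notes, the authors used FastQC, Trimmomatic, Bowtie and kallisto. Their versions, settings and transcript set were not given in the sources used here. Of 60528 transcripts, 60444 (99.86%) matched GENCODE M21 (GRCm38), all with support level 1, 2 or 3, and the other 84 were left out. Counts were summed per gene over all isoforms, without regard to strand, and kallisto divides reads among similar sequences.

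All 8 libraries entered 1 edgeR quasi-likelihood model (edgeR 4.0.16, R 4.3.3) with TMM scaling, a mean per group and 4 residual degrees of freedom. Genes passed where filterByExpr (minimum count 10) kept them in both assays, and p-values were adjusted over all 12898. DKO was set against WT for footprints, for RNA and for their ratio (the interaction), and footprints against RNA within either genotype. Footprints over RNA per culture are log2 of CPM plus 0.5. Each SE was derived from the test, as the absolute log2 fold change divided by the square root of the quasi-likelihood F statistic. Scripts were tested on simulated data. The members and lists were chosen with earlier results of these data known.

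Members named with all values were the 4 with the smallest p per direction in each DKO contrast and those with the highest and lowest WT ratio of their class (20 in all), beside any called in a contrast with at most 20 member calls, which added none. Library values of Kif1a, Ncor1, Arid1a and Arid1b were added after they were seen. Lists contribute up to 2 genes with the smallest p. Libraries with the same genotype and number were taken as 1 culture from their codes. For DKO replicate 2 the code differs in spelling between footprints and RNA. The deviations of a culture's footprints and RNA correlated across genes at 0.605 in WT and 0.211 in DKO. Alternatives tried included TMM within each assay, RLE scaling, other filters, DESeq2 1.42.0, limma-voom, protein-coding isoforms only, length classes, left-out libraries and cultures, and replicate blocks. Chosen after seeing the data were the restriction to the 27 covered genes and the crossed block.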

Additional observations from a re-analysis of the deposited data

How the results depend on the processing

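No setting that kept all 8 libraries called any of the 38 genes in footprints, RNA or efficiency. Fits without a library or culture leave a group with a single library. The number of all tested genes called varied widely between those fits, so only their medians are given here. Leaving out a library or a culture gave footprint medians of -0.039 to 0.176 (0.168 without footprints of WT replicate 1, 0.176 without that culture), RNA medians of -0.195 (without the culture DKO replicate 2) to 0.076, and efficiency medians of -0.041 to 0.308. Footprints over RNA in WT had medians of -0.318 to -0.092 and 5 to 10 higher calls, and in DKO medians of -0.272 to 0.069, 2 to 11 higher calls and 10 to 17 lower calls. With TMM within each assay the WT median was -0.44 with 3 higher calls (23.1% of all tested genes), and the DKO median -0.331 with 4 (23.5%). Relative to the length class the medians were 0.188 and 0.315. With protein-coding isoforms 4 of 33 genes were higher in WT and 6 in DKO, beside 30.4% and 30.1% of all genes tested in that setting. The culture as a replicate block gave an efficiency median of 0.126 with 0 calls, 9 higher and 19 lower in WT, and 11 and 17 in DKO. Numbers shared between WT and DKO did not pair the samples (correlations of -0.132 and -0.128 in footprints and RNA). That replicate block gave medians of 0.051 in footprints and -0.063 in RNA, and crossed numbers 0.05 and -0.066, each with 0 calls. Single genes that changed sign when a library or culture was left out had these ranges: Nf1 footprints -0.04 to 0.40, RNA of App -0.48 to 0.06 (0.05 without the culture DKO replicate 1), Chd3 -0.07 to 0.31, Dscam -0.01 to 0.15, Prickle2 -0.01 to 0.16 and Nf1 0.00 to 0.17, Spen efficiency -0.40 to 0.12, Plxnb1 footprints over RNA -0.27 to 0.12 in WT and -0.12 to 0.29 in DKO, and in DKO Kmt2d -0.18 to 0.36 and Ubr4 -0.04 to 0.60. With TMM within each assay Celsr2 (-0.03) and Ubr4 (-0.04) changed sign in WT, and Kmt2d (-0.11) and Plxnb1 (-0.14) in DKO. The cause was not tested. With 2 libraries a group the SE of the footprint change was 0.09 to 0.29, which limits what could be called.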
